A study of Mus musculus with 6 samples.

Results

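The 5 genes of the REL family, Nfkb1, Nfkb2, Rel, Rela and Relb, encode the subunits of the transcription factor NF-kB, and Nfkbia, Nfkbib, Nfkbie, Nfkbiz and Bcl3 encode its inhibitors and nuclear cofactors of the IkB family. These 10 genes were chosen by name, and all 10 were found among the 55401 genes of the deposited count table and passed the low-count filter that left 12972 tested genes. They were measured by bulk RNA sequencing in 6 libraries of RAW264.7, an established mouse macrophage-like cell line of wild-type genotype, of which 3 received phosphate-buffered saline (PBS) and 3 received 6.25 µg/ml of molybdenum disulfide (MoS2), a layered metal sulfide. All 6 libraries come from this single line grown in serum-containing medium. The exposure time was not given in the sources used here. It is also not stated whether replicates came from different cultures, and p-values then reflect no more than the spread of these libraries, which may be technical. The series as titled concerns tumours, whereas the comparison is MoS2 against PBS within the macrophage line.

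NF-kB is a family of dimers built from REL-family proteins. Nfkb1 and Nfkb2 encode long precursors that are processed into the DNA-binding subunits p50 and p52, while Rela, Rel and Relb encode the subunits p65, c-Rel and RelB, which carry a transactivation domain. The classical inhibitors IkB-alpha (Nfkbia), IkB-beta (Nfkbib) and IkB-epsilon (Nfkbie) hold dimers in the cytoplasm until the IKK kinases mark them for degradation. IkB-zeta (Nfkbiz) and Bcl-3 (Bcl3) act in the nucleus, where they bind DNA-bound dimers and raise or lower transcription of chosen targets. In macrophages the system is known for switching on cytokine and survival genes within minutes of a danger signal, and several of its own genes are among its targets. It is controlled largely at the level of protein degradation and localization, which RNA counts do not measure.

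Total counts ran from 15767618 to 18412762 per library, and the 10 genes together took 0.0685% to 0.0782% of them. The 10 most abundant genes of a library took 5.25% to 5.64% of the counts with PBS and 18.95% to 19.6% with MoS2. Levels are given as CPM, the count relative to the library's size, with TMM factors, which are estimated from most genes instead of from the total. These factors take most of those genes as unchanged or as changed evenly in both directions, and 80.7% of tested genes were called below. With library totals alone, log2 fold changes shift by a median of -0.77. The libraries carried macrophage markers (10 of 10 tested, summed level 7850 to 8120 CPM with PBS and 5480 to 5820 CPM with MoS2). The markers went both ways: 4 were called higher and 4 lower, and Adgre1 and Cd14 were not called. The sum is dominated by Lyz2 (3624 to 1976 CPM) and Csf1r (1909 to 513 CPM), both lower, while Cd68 and Itgam rose by 1.09 and 1.47 (log2). Ctss and Fcgr3 had 0.26 and 0.24, but -0.51 and -0.54 with library totals. The part of these marker changes, and of the few abundant genes, in the results was not tested. Of the 28 markers of fibroblasts, lymphocytes, neutrophils, epithelium and endothelium, 0 passed the low-count filter, and 8 had no count in any library. In bulk RNA, fewer cells of a kind and less RNA per cell cannot be told apart.

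With MoS2 and TMM factors, Nfkbib, Nfkbiz and Rel rose most, Nfkbie and Rela fell most, and the other 5 genes moved less. The log2 fold change of Rela stood at percentile 24.1 of all tested genes, so falls of that size were common. After removal of each library's trend with gene length and GC content, Rela had -0.67 and Nfkb2 had 1.05. Nfkbib rose 4.29-fold, Nfkbiz 3.32-fold and Rel 3.0-fold in mean CPM, whereas Nfkbie was 5.54-fold lower and Rela 2.0-fold lower. By edgeR's quasi-likelihood test, 6 of the 10 genes were called higher and 3 lower at a Benjamini-Hochberg adjusted p under 0.05, and Bcl3 was not called. The same rule called 38.3% of all tested genes higher and 42.4% lower, or 80.7% in either direction, so a call in itself does not set these genes apart. Groups did not overlap in CPM for 9 of the 10 genes, 6 higher and 3 lower, against 81.9% of all tested genes (38.8% higher and 43.1% lower). The median log2 fold change was 0.28 over the 10 genes and -0.08 over all tested genes. With library totals alone, 3 of the 10 genes were called higher and 7 lower, where that scaling called 18.0% and 67.7% of tested genes. The 3 genes called higher under both scalings were Nfkbib, Nfkbiz and Rel, while Nfkb1, Nfkb2 and Nfkbia changed sign.

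**Figure D1:**
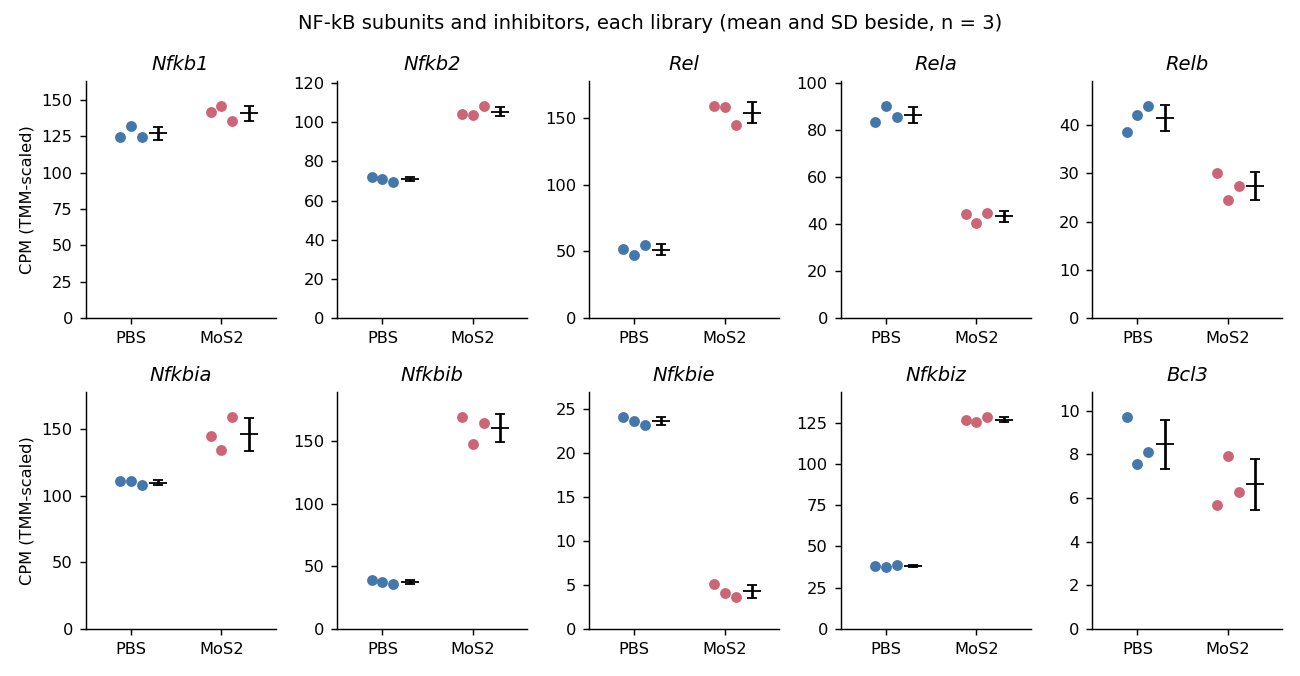
CPM (TMM-scaled) of each of the 10 genes in each of the 6 libraries, PBS in blue and MoS2 in red, with the mean and SD of 3 libraries in black beside the points; each axis starts at 0. Nfkbie falls from about 24 to about 4 CPM, Nfkbib, Nfkbiz and Rel rise, and the Bcl3 groups overlap.

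Stretches upstream of 4 of the genes are shown because NF-kB genes are known to carry NF-kB binding sites in their own promoters, and because these 4 went different ways. Promoters of the 10 genes were looked up in RefSeq (GRCm38.p6), which matched 7 of them: Nfkb2 (with 3 starts), Rel, Rela, Nfkbia, Nfkbib, Nfkbie and Bcl3. In the 250 bases before each start, both strands were searched for the NF-kB consensus of 10 letters, and capitals mark its matches, overlapping ones merged. Sequences run 5′ to 3′ in the direction of the gene and stop at the first base that GENCODE M21 annotates as an exon.
Rel (rose; chr11:23770971-23771219, minus strand): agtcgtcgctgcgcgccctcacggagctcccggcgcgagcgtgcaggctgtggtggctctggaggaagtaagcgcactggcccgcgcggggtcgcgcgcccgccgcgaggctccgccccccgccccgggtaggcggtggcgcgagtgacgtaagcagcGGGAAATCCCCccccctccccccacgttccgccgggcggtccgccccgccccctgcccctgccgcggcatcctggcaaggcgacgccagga
Rela (fell; chr19:5637291-5637482, plus strand): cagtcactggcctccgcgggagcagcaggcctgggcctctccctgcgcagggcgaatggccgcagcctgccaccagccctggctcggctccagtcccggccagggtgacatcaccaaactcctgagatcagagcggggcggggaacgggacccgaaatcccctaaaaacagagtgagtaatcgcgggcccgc
Nfkbia (direction depends on the scaling; chr12:55492648-55492897, minus strand): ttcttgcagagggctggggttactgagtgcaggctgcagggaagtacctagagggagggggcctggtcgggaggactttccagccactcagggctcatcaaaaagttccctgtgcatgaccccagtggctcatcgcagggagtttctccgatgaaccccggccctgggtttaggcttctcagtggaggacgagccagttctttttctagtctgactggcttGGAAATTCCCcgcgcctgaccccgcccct
Nfkbie (fell; chr17:45555450-45555699, plus strand): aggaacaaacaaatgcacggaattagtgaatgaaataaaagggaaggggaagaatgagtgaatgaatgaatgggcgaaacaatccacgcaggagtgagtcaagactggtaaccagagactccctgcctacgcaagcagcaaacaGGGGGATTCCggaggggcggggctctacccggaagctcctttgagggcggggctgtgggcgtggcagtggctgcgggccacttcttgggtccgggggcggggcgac
The consensus matched before a start of 4 of the 7 genes, Nfkb2, Rel, Nfkbia and Nfkbie, and of 7.25% of all 32851 promoters searched. A gene counted if any of its starts matched, whereas the 7.25% is per promoter. Windows of the 7 genes held 57.6% to 77.6% G and C, against a median of 52.4% over all promoters. The shares are thus not alike, and no enrichment was tested, also for the looser pattern below. Its matches read GGGAAATCCC in Rel, 92 to 83 bases before the start, GGGAATTTCC on the opposite strand in Nfkbia, 29 to 20 bases before, and GGGGGATTCC in Nfkbie, 106 to 97 bases before. Nfkb2 held GGGAATTCCC and GGGGCTTTCC before its first start and GGGACATTCC and GGGACTTTCC before the second and the third. These 3 windows lie within the Nfkb2 gene as GENCODE M21 annotates it, and annotated exons cover 250, 167 and 234 of their 250 bases. The looser pattern of GGG, any 5 letters and CC, searched on both strands, which contains the consensus, was found in 6 of the 7 genes (all but Nfkbib) and in 45.8% of all promoters. Matches thus occurred before a RefSeq start of a gene that rose, a gene that fell and genes with small changes. No match of the consensus was found before the start of Rela, Nfkbib or Bcl3. The Nfkbib window also lies within its gene as GENCODE M21 annotates it, and exons of Sirt2 cover 133 of its 250 bases. Bases before the annotated start of Nfkbib were thus not searched. A match describes letters and is no measurement of binding.

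Among the subunits with a transactivation domain, c-Rel and p65 transcripts went opposite ways. Rel (ENSMUSG00000020275.9, GRCm38 chromosome 11, 23736847 to 23770970), which encodes c-Rel, a subunit prominent in lymphoid and myeloid cells, had 51.9, 47.0 and 54.9 CPM in the PBS libraries and 158, 158 and 145 CPM in the MoS2 libraries. Every MoS2 library lay well above every PBS library. Its log2 fold change was 1.59 ± 0.07 (SE, edgeR adjusted p = 2e-10), at percentile 90.6 of all tested genes. Rela (ENSMUSG00000024927.8, GRCm38 chromosome 19, 5637483 to 5648130), which encodes p65, the main activating subunit of most cells, had 83.2, 89.9 and 85.6 CPM with PBS and 44.4, 40.5 and 44.8 CPM with MoS2. Every PBS library lay above every MoS2 library, and the log2 fold change was -1.0 ± 0.07 (edgeR adjusted p = 1.7e-08), at percentile 24.1. Both kept their direction and their call in each of the 18 alternative settings run, with a range of 0.81 to 1.68 for Rel and of -1.77 to -0.67 for Rela.

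The third such subunit, RelB, which pairs with p52 in the non-canonical branch, was also lower with MoS2. Relb (ENSMUSG00000002983.17, GRCm38 chromosome 7, 19606217 to 19629438) had 38.5, 42.1 and 43.8 CPM with PBS and 30.1, 24.5 and 27.4 CPM with MoS2. The groups did not overlap, and the log2 fold change was -0.60 ± 0.09 (edgeR adjusted p = 4.1e-05). After removal of the trend of each library with length and GC content, an alternative chosen after seeing the data, it was -0.25 ± 0.09 (edgeR adjusted p = 0.019). With library totals it was -1.37 ± 0.09 (edgeR adjusted p = 9.5e-09), and these 2 values bound the 18 alternatives, all of which called Relb lower.

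Both genes of the precursor subunits changed less, and their direction depends on the scaling. Nfkb1 (ENSMUSG00000028163.17, GRCm38 chromosome 3, 135584655 to 135691547) had 125, 132 and 124 CPM with PBS and 142, 145 and 135 CPM with MoS2. Its groups lay close to each other without overlap, and the log2 fold change was 0.15 ± 0.06 (edgeR adjusted p = 0.039). It was -0.62 with library totals and 0.35 with the length and GC trend removed (edgeR adjusted p of 1.2e-06 and 5e-05), and the call was lost without each of PBS replicates 1, 2 and 3 and MoS2 replicates 1 and 2 (log2 fold changes of 0.12 to 0.17, edgeR adjusted p of 0.054 to 0.15). Nfkb2 (ENSMUSG00000025225.15, GRCm38 chromosome 19, 46304320 to 46312385) had 71.8, 71.1 and 69.7 CPM with PBS and 104, 104 and 108 CPM with MoS2. These are tight and separate groups, and the log2 change was 0.57 ± 0.06 (edgeR adjusted p = 1.1e-06), but it was -0.20 with library totals and 1.05 with the length and GC trend removed. Exons of 2 genes on the opposite strand, AC114539.1 and Psd, cover 11.6% and 6.5% of the Nfkb2 exons. The strand setting of the counting was not given in the sources used here, so reads there may be shared or lost.

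The classical inhibitors showed the widest spread, from the strongest rise to the strongest fall of the 10 genes. IkB-beta, which releases its dimers more slowly than IkB-alpha, led the rises. Nfkbib (ENSMUSG00000030595.15, GRCm38 chromosome 7, 28758251 to 28767512) had 39.1, 37.4 and 35.5 CPM with PBS and 169, 148 and 165 CPM with MoS2. Each MoS2 library lay far above the highest PBS library, and its log2 fold change was 2.1 ± 0.07 (edgeR adjusted p = 1.6e-11), at percentile 95.2 of all tested genes. It was called higher in all 18 alternatives, at 1.33 to 2.16. Nfkbib starts head to head with Sirt2, a deacetylase gene named here after its values were seen, and 42 exon bases of the pair overlap on opposite strands. Sirt2 rose from 80.2 ± 1.92 to 253 ± 8.37 CPM (SD, n = 3; log2 fold change 1.65 ± 0.06, edgeR adjusted p = 2.5e-11). The part of shared reads in either rise was not tested, and the overlap makes up 1.9% of the Nfkbib exons. Ccer2, also on the opposite strand, shares 314 exon bases with Nfkbib and had no count in any library.

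IkB-epsilon transcripts went the other way. Nfkbie (ENSMUSG00000023947.8, GRCm38 chromosome 17, 45555703 to 45563169), whose product mainly retains p65 and c-Rel dimers, had 24.1, 23.7 and 23.2 CPM with PBS and 5.11, 4.05 and 3.66 CPM with MoS2. The MoS2 values rest on 64, 50 and 50 reads, against 516 to 556 reads with PBS, and the groups were far apart. Its log2 fold change of -2.47 ± 0.13 (edgeR adjusted p = 8.9e-10) stood at percentile 5.97 of all tested genes, and it was called lower in all 18 alternatives, at -3.24 to -2.29. Among all tested genes, its level per length dropped from percentile 60.4 to percentile 27.1, while that of Nfkbib went from 81.2 to 94.2.

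IkB-alpha, the inhibitor whose gene is a textbook early target of NF-kB, stayed the most abundant of the 10 transcripts per length in both groups. Nfkbia (ENSMUSG00000021025.8, GRCm38 chromosome 12, 55489410 to 55492647) had 111, 111 and 108 CPM with PBS and 145, 135 and 159 CPM with MoS2. The groups did not overlap, and the log2 fold change was 0.41 ± 0.07 (edgeR adjusted p = 8.9e-05). The direction depends on the scaling: it was -0.36 ± 0.06 with library totals (edgeR adjusted p = 0.00015) and 0.02 ± 0.06 with the length and GC trend removed (edgeR adjusted p = 0.82). Its level per length stood at percentile 96.6 of tested genes with PBS and 95.2 with MoS2. Levels per length were not computed with the length and GC trend removed, where Nfkbib had a log2 fold change of 2.14.

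The nuclear IkB genes also parted. IkB-zeta is needed for a second wave of targets such as Lcn2 and Csf3. Nfkbiz (ENSMUSG00000035356.17, GRCm38 chromosome 16, 55811375 to 55838899) had 38.0, 37.8 and 38.6 CPM with PBS and 127, 125 and 128 CPM with MoS2. The SD was 1.10% of the mean with PBS and 1.21% with MoS2, and the groups lay far apart. Its log2 fold change was 1.73 ± 0.06 (edgeR adjusted p = 2.2e-11), at percentile 92.4, and 0.96 to 1.93 in its 18 alternatives. Bcl3 (ENSMUSG00000053175.17, GRCm38 chromosome 7, 19808462 to 19822770), whose product binds p50 and p52 dimers, was the lowest of the 10 genes with PBS, at 9.71, 7.56 and 8.13 CPM, and had 5.67, 7.94 and 6.29 CPM with MoS2. These groups overlap, and its log2 fold change of -0.35 ± 0.17 did not pass (edgeR adjusted p = 0.067). Without MoS2 replicate 2 it was -0.50 and called (edgeR adjusted p = 0.025), and with library totals it was -1.12 (edgeR adjusted p = 3.2e-05). It was -0.08 with the length and GC trend removed (edgeR adjusted p = 0.67), and -0.25 without PBS replicate 1 or without MoS2 replicate 1 (edgeR adjusted p of 0.21 and 0.23). Gm16175, on the opposite strand, shares 161 exon bases with Bcl3 and had at most 2 reads in a library.

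**Figure D2:**
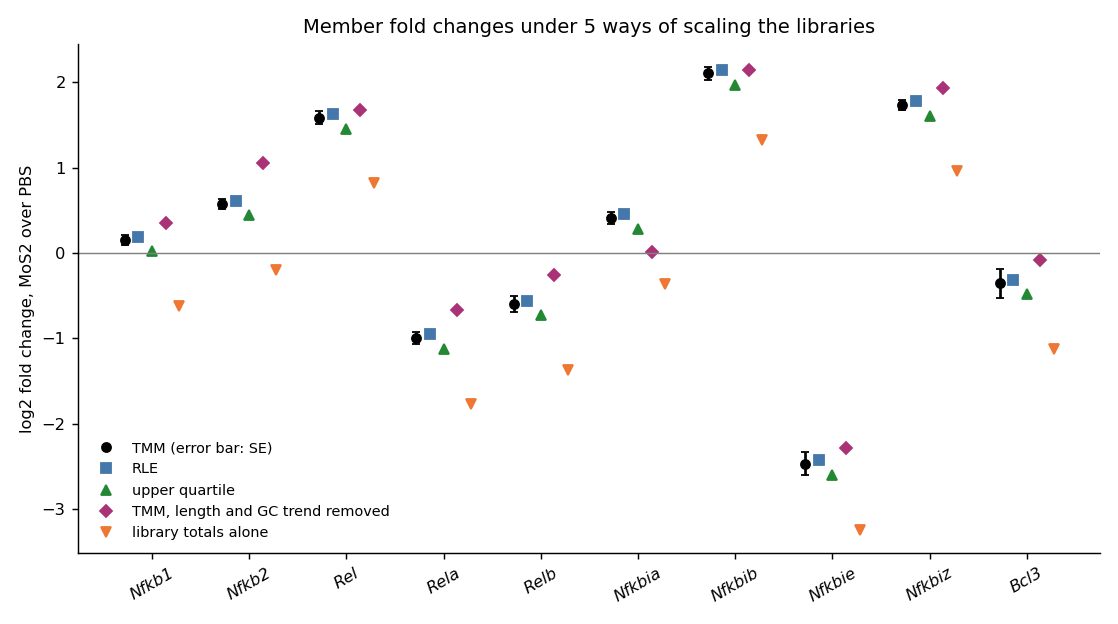
Log2 fold change (MoS2 over PBS) of each of the 10 genes with TMM factors (black, error bar is the SE), RLE and upper-quartile factors, TMM without the length and GC trend, and library totals alone. Rel, Nfkbib and Nfkbiz stay above 0 and Rela, Relb, Nfkbie and Bcl3 below 0 in all 5, while Nfkb1, Nfkb2 and Nfkbia change sign with library totals.

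Because scaling between libraries moves these values, each gene was also set against Rela within the same library, where scaling cancels. Rel had 0.257, 0.215 and 0.264 times the Rela level per length with PBS and 1.47, 1.61 and 1.33 times with MoS2. The c-Rel transcript thus went from the less abundant to the more abundant of the pair in each MoS2 library. On the log2 scale of counts, the ratio to Rela was higher with MoS2 by 3.10 for Nfkbib, 2.73 for Nfkbiz, 2.58 for Rel, 1.57 for Nfkb2, 1.41 for Nfkbia, 1.15 for Nfkb1, 0.64 for Bcl3 and 0.39 for Relb, and lower for Nfkbie, with a difference of -1.47. Of these 9 ratios, 9 did not overlap between groups, and each had an exact two-sided permutation p = 0.1 (Benjamini-Hochberg adjusted p = 0.1), the smallest that 3 against 3 libraries allow. The share of all tested genes whose ratio to Rela does not overlap was not computed. In CPM the groups did not overlap for 81.9% of tested genes, so the 9 of 9 does not set these genes apart. Relative to Rela, Relb was thus higher and Nfkbie lower in every MoS2 library than in any PBS library. With the length and GC trend removed the ratio of Nfkbia to Rela differed by 0.68 and that of Rel by 2.35. The test shares Rela across all 9 ratios, so they are not independent of each other.

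**Figure D3:**
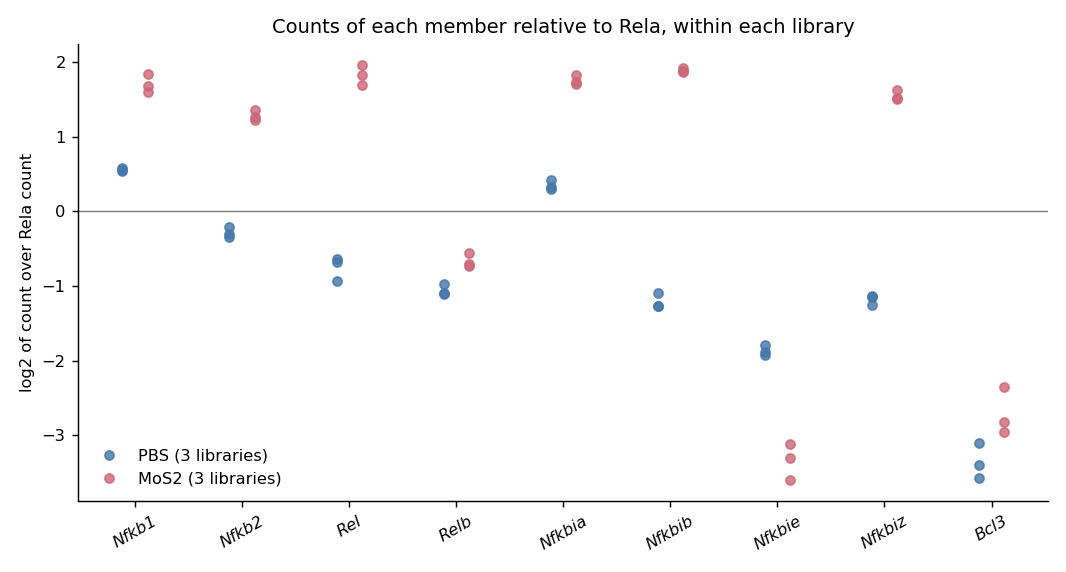
Log2 of each gene's count over the Rela count in the same library, with 3 PBS libraries in blue and 3 MoS2 libraries in red. Points of the groups do not overlap for any of the 9 genes, and only Nfkbie moves down relative to Rela. Rela itself fell with MoS2, so points can move up for a gene that fell, such as Relb.

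Divided by gene length, the make-up of the subunit transcripts shifted from Rela towards Rel and Nfkb2. Rela made up 39.2% ± 0.846 (SD, n = 3) of the summed subunit level with PBS and 18.4% ± 0.869 with MoS2. The share of Rel went from 9.60% ± 0.841 to 27.0% ± 1.29 and that of Nfkb2 from 21.6% ± 0.707 to 30.1% ± 0.954. Relb dropped from 14.9% ± 0.746 to 9.20% ± 0.80, and Nfkb1 was at 14.7% ± 0.379 and 15.3% ± 0.619, a difference within 1 SD of the MoS2 libraries. These shares rest on the gene lengths of the deposited table, which add up all annotated exons. They were not computed with the length and GC trend removed. In raw counts, the difference for Nfkb1 was -3.76 percentage points instead of 0.595, that for Nfkb2 was 3.58 instead of 8.50, and that for Rela -13.7 instead of -20.8. Rel gained 19.1 points in raw counts and 17.4 per length.

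Among the inhibitors, the shift was from Nfkbia and Nfkbie to Nfkbib and Nfkbiz. Nfkbia made up 65.5% ± 0.587 of the summed inhibitor level per length with PBS and 46.8% ± 1.47 with MoS2, while Nfkbib went from 16.5% ± 0.449 to 38.1% ± 1.24. The Nfkbib level per length was 0.252 ± 0.0087 times that of Nfkbia with PBS and 0.815 ± 0.0482 times with MoS2. In reads not divided by length, Nfkbib had 2554 against 7518 of Nfkbia in all PBS libraries. In all MoS2 libraries Nfkbib had more, with 6186 against 5656 reads. Nfkbiz went from 7.29% ± 0.222 to 13.0% ± 0.662, Nfkbie from 7.45% ± 0.014 to 0.725% ± 0.132, and Bcl3 from 3.28% ± 0.385 to 1.39% ± 0.331. In raw counts, the Nfkbiz gain was 11.04 instead of 5.75 percentage points and the Nfkbie difference -9.91 instead of -6.72. With the length and GC trend removed, Nfkbia and Nfkbib had log2 fold changes of 0.02 and 2.14, and shares were not computed. The 3 classical inhibitors together had 1.30 ± 0.0483 times the summed subunit level with PBS and 2.18 ± 0.146 times with MoS2. For the 2 nuclear genes the same ratio was 0.154 ± 0.0097 and 0.366 ± 0.0113. Neither ratio overlapped between groups (exact permutation p = 0.1 for each, the smallest possible with n = 3 per group). In CPM the groups did not overlap for 81.9% of tested genes, so this does not set the ratios apart. Both ratios rest on division by gene length, and neither was computed in raw counts or with the length and GC trend removed.

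**Figure D4:**
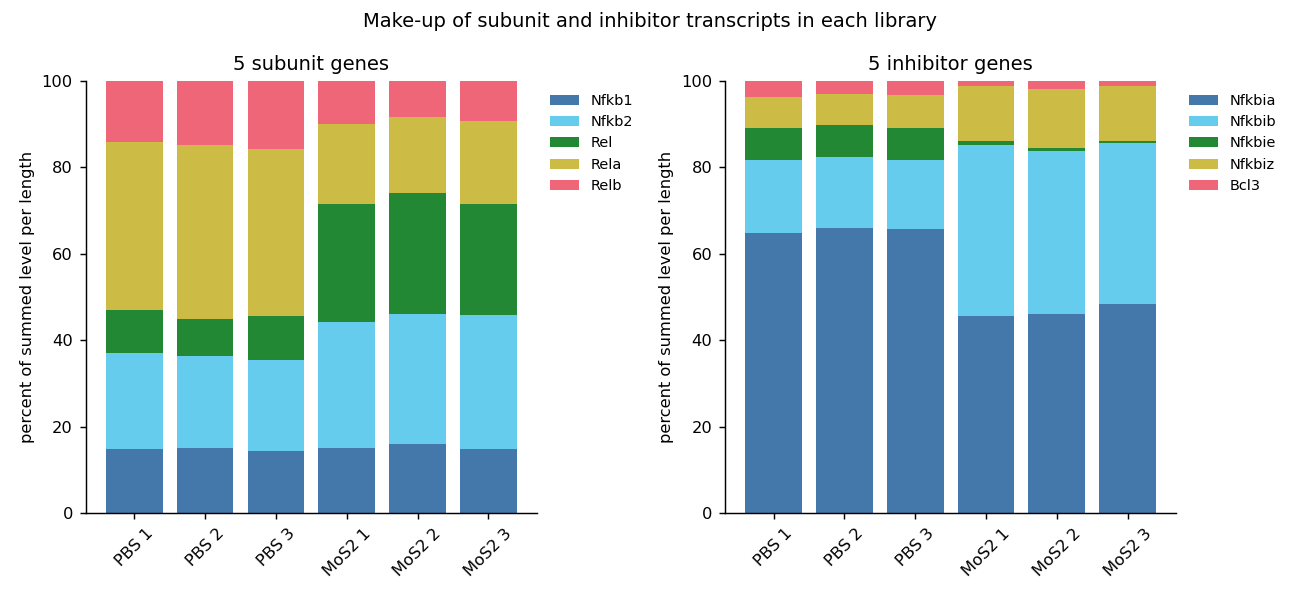
Stacked bars of each gene's percent of the summed level per length, for the 5 subunit genes (left) and the 5 inhibitor genes (right), 1 bar per library. Rela shrinks from 39.2% to 18.4% of the subunit level and Nfkbie from 7.45% to 0.725% of the inhibitor level, while Rel and Nfkbib widen.

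The order of the 10 transcripts by CPM per kilobase changed accordingly. With PBS it ran Nfkbia (68.3), Rela (28.1), Nfkbib (17.2), Nfkb2 (15.5), Relb (10.7), Nfkb1 (10.5), Nfkbie (7.77), Nfkbiz (7.60), Rel (6.87) and Bcl3 (3.42). Within it, Relb and Nfkb1, and likewise Nfkbie and Nfkbiz, overlapped over the 3 libraries and cannot be ranked. With MoS2 the order of CPM per kilobase was Nfkbia (90.9), Nfkbib (73.9), Nfkbiz (25.3), Nfkb2 (23.0), Rel (20.6), Rela (14.1), Nfkb1 (11.7), Relb (7.04), Bcl3 (2.68) and Nfkbie (1.40), with no overlap between neighbours. Rela dropped from rank 2 to rank 6, and Rel moved from rank 9 to rank 5. The order rests on the deposited gene lengths, which add up all annotated exons. In mean CPM without division by length, Nfkb1 (127) was above Nfkbia (110) with PBS. With MoS2, Nfkbib (160) and Rel (154) were above Nfkbia (146) in mean CPM. Ranks were not computed with the length and GC trend removed, so the places of Nfkbia and Nfkbib with MoS2 may depend on that trend.

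The shares called over all tested genes were 38.3% higher and 42.4% lower, or 18.0% and 67.7% with library totals, and the counts for each list of pathway genes are to be read against them. Of 12 genes of the IKK complex and the kinases above it, 3 were called higher and 6 lower (median log2 fold change -0.22, against -0.08 over all tested genes), and 0 and 11 with library totals. Ikbkb, the catalytic subunit of the canonical branch, fell from 72.0 ± 2.0 to 51.5 ± 2.22 CPM (log2 fold change -0.49 ± 0.07, edgeR adjusted p = 1.8e-05), or -0.08 and not called with the length and GC trend removed (edgeR adjusted p = 0.33). Its partner Chuk rose by 0.28, but had -0.49 with library totals, and the scaffold Ikbkg had -0.13 and was not called (edgeR adjusted p = 0.16). The NF-kB-inducing kinase Map3k14, which drives the non-canonical branch, had 13.7 ± 1.42 and 14.1 ± 0.414 CPM and was not called (edgeR adjusted p = 0.78), although it had 0.56 and was called with the length and GC trend removed. The smallest p-values in this list belonged to 4 other genes. Ripk1, a kinase at the TNF receptor, fell from 45.3 ± 1.71 to 11.4 ± 1.21 CPM, and the adaptor Tab2 and the IKK-related kinase Ikbke had log2 fold changes of -0.83 and -0.85. Map3k8 (Tpl2), which is held by p105, rose by 0.83, or 0.05 and not called with library totals.

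Of 16 genes of the ubiquitin steps, 7 were higher and 4 lower (median 0.12), or 2 and 13 with library totals, against 38.3% and 42.4%, or 18.0% and 67.7%, of all tested genes. The conjugating enzyme Cdc34, which takes part in IkB degradation, rose from 64.0 ± 3.61 to 181 ± 18.3 CPM and the ring subunit Rbx1 by 0.95 (log2), whereas the cullin scaffold Cul1 had a log2 fold change of -1.40. Birc3, the ubiquitin ligase cIAP2 and a textbook NF-kB target, fell from 86.0 ± 4.14 to 24.3 ± 1.38 CPM. Of 13 feedback regulators, 6 were higher and 4 lower (median 0.07), or 2 and 10 with library totals. Since most tested genes were called, these counts set neither list apart. Tnfaip3, the deubiquitinase A20 and an NF-kB target, went from 16.4 ± 1.31 to 31.4 ± 3.87 CPM (log2 fold change 0.93 ± 0.11, edgeR adjusted p = 2.4e-06), or 0.16 and not called with library totals. The linear-chain deubiquitinase Otulin rose by 1.08 and Commd1, which promotes removal of p65, by 1.42, while the A20-binding gene Tnip3 had -1.23 and N4bp1 -1.43. Cyld had 0.34 (-0.43 with library totals) and Tnip1 -0.17 (0.18 with the length and GC trend removed).

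Nfkbid, the nuclear IkB gene that is not among the 10, rose from 27.5 ± 0.905 to 49.9 ± 1.76 CPM (log2 fold change 0.86 ± 0.08, edgeR adjusted p = 1.4e-07), or 0.09 and not called with library totals. In its list of other IkB-like genes and nuclear partners, 5 were higher and 5 lower of 11 (median 0.04), and 1 and 9 with library totals, near the 38.3% and 42.4%, and the 18.0% and 67.7%, of all tested genes. The acetyltransferase Ep300 and the deacetylase Sirt1 had log2 fold changes of -1.47 and -1.37. Rps3, a ribosomal protein that also binds p65, rose by 1.53, with counts that are uncertain because ribosomal protein genes have many near-identical copies.

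Among 8 genes known to need IkB-zeta in macrophages, summed reads are given for the low ones, since Il6, Csf2, Csf3 and Edn1 passed the low-count filter only through the MoS2 libraries, and no count or median over the list is drawn. The cytokine genes Csf3 and Csf2 went from 11 and 10 reads in all PBS libraries to 15531 and 306 reads in all MoS2 libraries, the endothelin gene Edn1 from 4 to 152 reads, and the siderophore-binding Lcn2 from 586 to 15754 reads. Il6 had 1 read with PBS and 54 with MoS2, and Il12b, which was not tested, had 2 and 1. Lcn2, Ebi3 and Cebpd were also counted with PBS. Lcn2 rose from 8.57 ± 1.75 to 408 ± 24.6 CPM (log2 fold change 5.57 ± 0.12, edgeR adjusted p = 1.1e-13). Ebi3 rose from 17.6 ± 1.77 to 37.5 ± 0.797 CPM and Cebpd fell from 32.4 ± 5.40 to 18.7 ± 1.39 CPM. Il6, Il12b, Ebi3 and Cebpd were named after their values were seen, to account for the whole list. Survival targets had 7 higher and 3 lower of 10 (median 1.01), or 5 and 3 with library totals, against 38.3% and 42.4%, or 18.0% and 67.7%, of all tested genes. No enrichment was tested, and Birc3 is also in the list of ubiquitin steps. Bcl2a1b and Bcl2a1d, counted as higher, had -0.28 and -0.02 with the length and GC trend removed, where the others called higher stayed above 0. These Bcl2a1 genes were named after their values were seen. The survival targets included Gadd45b, a stress sensor (5.21 ± 0.09), Ier3 (2.43 ± 0.07), and the anti-apoptotic Bcl2l1 (1.48 ± 0.07), against Birc3 at -1.82 ± 0.08. Adhesion, receptor and costimulatory targets had 3 higher and 6 lower of 10 (median -0.29), or 2 and 8 with library totals, which is near the shares over all tested genes. The costimulatory receptor Cd40 and the adhesion receptor Cd44 rose by 2.32 and 1.54, while the bacterial lipoprotein receptor Tlr2 and the adhesion molecule Icam1 had -2.55 and -0.91 (edgeR adjusted p of 2.4e-12 and 5.1e-08). Of 7 genes linked to the non-canonical branch only the B cell factor Tnfsf13b had enough reads to be tested, and it fell from 6.15 ± 0.683 to 2.16 ± 0.265 CPM.

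**Figure D5:**
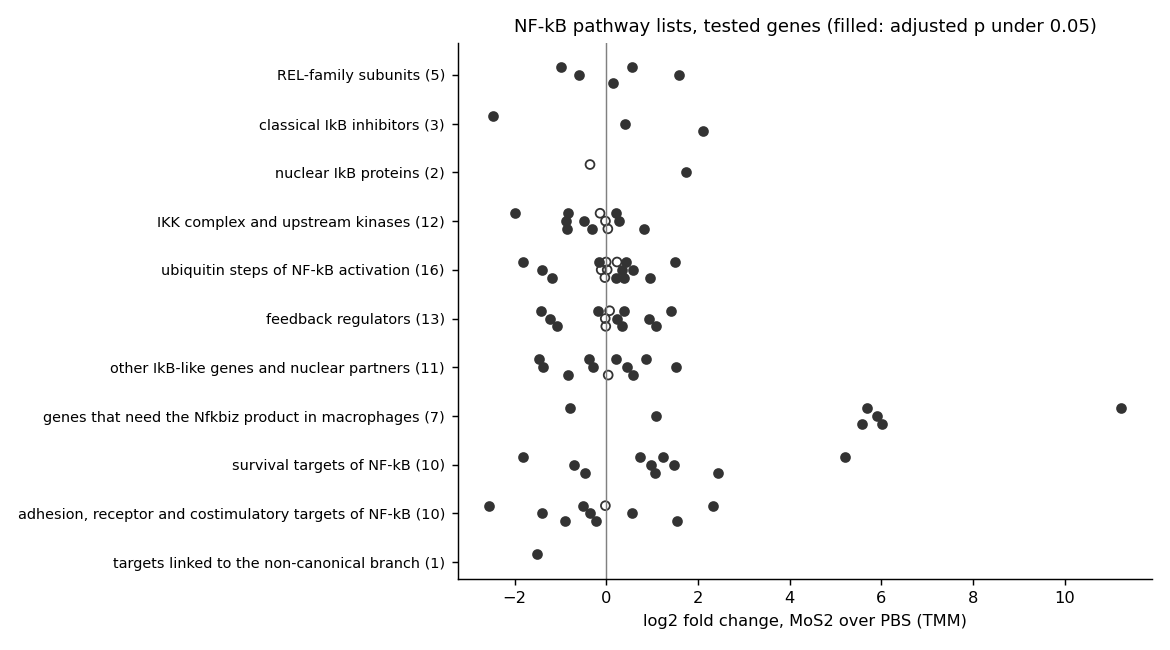
Log2 fold change (MoS2 over PBS, TMM) of each tested gene of the subunit, inhibitor and pathway lists, with the number of tested genes in parentheses; filled points have an edgeR adjusted p under 0.05 and open points do not. Csf3 lies farthest to the right, in a list where 4 genes were tested only through their MoS2 reads, and every list holds genes on both sides of 0 except the non-canonical one, which has 1 gene.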

How the data were processed

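The authors deposited raw counts of reads for every gene in 6 libraries. Tools named in the submitters' processing notes are HISAT2 2.1.0, featureCounts 1.6.1 and fastp 0.20.0. Those notes name GRCh38, a human build, but 54349 of the 55401 identifiers occur in GENCODE M21 (mouse, GRCm38) with the same version and coordinates, which are given here. Columns were matched to samples by letter (M or c) and replicate number. How multi-mapping reads were treated was not given in the sources at hand.

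Counts were tested with edgeR 4.0.16 (limma 3.58.1, R 4.3.3): quasi-likelihood F test over all 12972 genes with about 10 counts in 3 libraries, TMM factors, group as the only term, prior count 0.125. The SE was taken as the log2 fold change divided by the root of F. DESeq2 1.42.0 and limma-voom were among the 18 alternatives. The deposited gene lengths gave CPM per kilobase, and ratios to Rela used a pseudocount of 0.5. The edgeR test was checked on simulated counts where few genes changed, evenly up and down. That check does not cover the choice of scaling in these data, where 80.7% of tested genes were called. The 10 genes, 8 pathway lists (89 of 90 entries found) and tests were chosen with earlier results of these data known. Named genes were the 10, the 4 with the smallest p per list, and Nfkbid, Tnfaip3, Tnip1, Cyld, Ikbkb, Chuk, Ikbkg and Map3k14. No replicate pair agreed within sampling noise (chi-square per degree of freedom 3.11 to 13.6). Protein sequences were not used here.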

Additional observations from a re-analysis of the deposited data

How the results depend on the processing

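With library totals alone, 3 of the 10 genes were called higher and 7 lower, in place of 6 and 3. Under that scaling Nfkb1, Nfkb2 and Nfkbia had log2 fold changes of -0.62, -0.20 and -0.36, and among pathway genes Chuk had -0.49, Cyld -0.43 and Map3k14 -0.74, all opposite in sign to TMM; the cause was not tested. With the length and GC trend removed, Tnip1 had 0.18. Without division by gene length, the Nfkb1 share of subunits differed by -3.76 percentage points. Over 18 alternatives each, 161 of 180 values of the 10 genes kept their direction and their side of the threshold, 12 lost the call (11 of Nfkb1, 1 of Nfkbia), 4 of Bcl3 gained one, and 3 changed sign. Leaving out 1 library at a time, 5 to 6 of the genes were called higher and 3 to 4 lower. Replicate numbers did not pair the libraries: deviations of same-numbered libraries correlated at -0.02, -0.01 and -0.14. With the replicate block, 5 genes were called higher and 3 lower, Nfkb1 losing its call. Depth limits Nfkbie and Bcl3 most, with 164 and 255 reads in all MoS2 libraries.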
